A study of Mus musculus with 4 samples.

Results

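Lipid storage and lipid transport genes were examined in bone marrow (BM) macrophages that had taken up apoptotic prostate cancer cells. The set held 10 genes, chosen by symbol out of the 31053 genes counted: the fatty-acid binding proteins Fabp3, Fabp4 and Fabp5, the lipoprotein lipase Lpl, the droplet coat proteins Plin2 and Plin3, the lipolysis genes Hilpda and Pnpla2, and the triglyceride synthases Dgat1 and Dgat2. The set was chosen with earlier results of these data known, so its shares beside those of all genes are descriptions. All 10 had enough counts to be tested. In efferocytic BM macrophages 7 of them were higher, by 1.44-fold (Plin3) to 3.01-fold (Fabp4), where 19.9% of all 13869 genes tested were called higher and 19.0% lower. The exceptions were Dgat2, which was called lower in this test, and Pnpla2 and Dgat1, which were not called.

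A macrophage that digests a dead cell receives its membranes as a load of fatty acids and cholesterol. Fatty-acid binding proteins carry fatty acids through the cytosol, and lipoprotein lipase releases them from lipoproteins outside the cell. Acyl-CoA:diacylglycerol acyltransferases (DGAT1 and DGAT2) join the last fatty acid to make triglyceride, which is stored in droplets coated by perilipins. Adipose triglyceride lipase (ATGL, encoded by Pnpla2) opens the store again, and HILPDA is a small protein that inhibits it. Droplet-laden macrophages, known as foam cells, carry high levels of several of these proteins.

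The libraries were made from BM macrophages of male C57BL/6J mice of 4 weeks (4 to 6 weeks in the general methods), grown with the growth factor M-CSF. RM1, a prostate cancer line induced by Ras and Myc in the same strain, was killed with UV light, labeled with the dye CFSE and given to the macrophages for 16 to 18 h. Efferocytic BM macrophages were sorted as F4/80+CFSE+ cells from the co-culture. Non-efferocytic BM macrophages were sorted as F4/80+ cells, F4/80 being a surface protein of mouse macrophages. The paper's discussion describes the latter as macrophages alone, while its methods do not state whether their wells held RM1 cells. If they were kept alone, the 2 groups differ in the presence of RM1 cells in the well as well as in uptake. These cannot be told apart. Each group gave 1 library in each of 2 experiments, so that n = 2 libraries per group. The paper states a minimum of independent mice per group for its BM macrophage experiments in general. How many mice were pooled in a library is not given in the sources used here. The p-values rest on how far the ratio between the groups differs between the 2 experiments. The test shares this spread across genes.

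The 10X Genomics 3′ kit counts each captured mRNA molecule once, as a unique molecular identifier (UMI), and marks it with the barcode of its droplet. A barcode was taken as a cell if it held 200 genes and 1000 UMIs or more, with no more than 10% of its UMIs from mitochondrial genes. This left 8280 cells in the non-efferocytic library of Experiment 1 and 6695 in its efferocytic library, and 13411 and 8408 cells in those of Experiment 2. The mean depth per cell was greater in the efferocytic libraries, at 18670 and 18462 UMIs against 12224 and 10316. A level in CPM is a gene's UMI count in all cells of a library, scaled to a library of 1e+06 UMIs. All 11 macrophage markers were detected at 1 CPM or more in every library. Their sum went from 41723 to 33291 CPM in Experiment 1 and from 35860 to 25342 CPM in Experiment 2, and 6 of them were called lower, Csf1r (the M-CSF receptor) by a log2 of -1.15, 1 (Cd68, 0.63) higher and 4 not called. The sum of the 6 monocyte markers went from 71.4 to 26.8 and from 79.8 to 16.8 CPM. The part of these shifts in the members' differences was not tested. The 7 adipocyte markers summed to at most 0.0800 CPM. The marker list for RM1 cells summed to 8.62 and 18.9 CPM in the non-efferocytic libraries and to 2.62 and 12.5 CPM in the efferocytic ones. It was thus higher in the non-efferocytic library of each experiment, so it cannot measure RM1 RNA in efferocytic cells. How much mouse RM1 RNA was counted among the members was not tested. The 2 libraries of Experiment 2 shared 118 barcodes (1.40% of the efferocytic cells), other pairs at most 23. The counts of members called were the same without the shared barcodes.

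CPM is thus a share of the RNA and not an amount per cell. Differences are log2 fold changes of efferocytic over non-efferocytic libraries, from edgeR's quasi-likelihood test. That test gives no standard error (SE). The SE printed is the size of the log2 fold change divided by the square root of the test's F value. Each experiment was a block of the model, and the p-values were adjusted over 13869 genes by Benjamini-Hochberg.

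**Figure D1:**
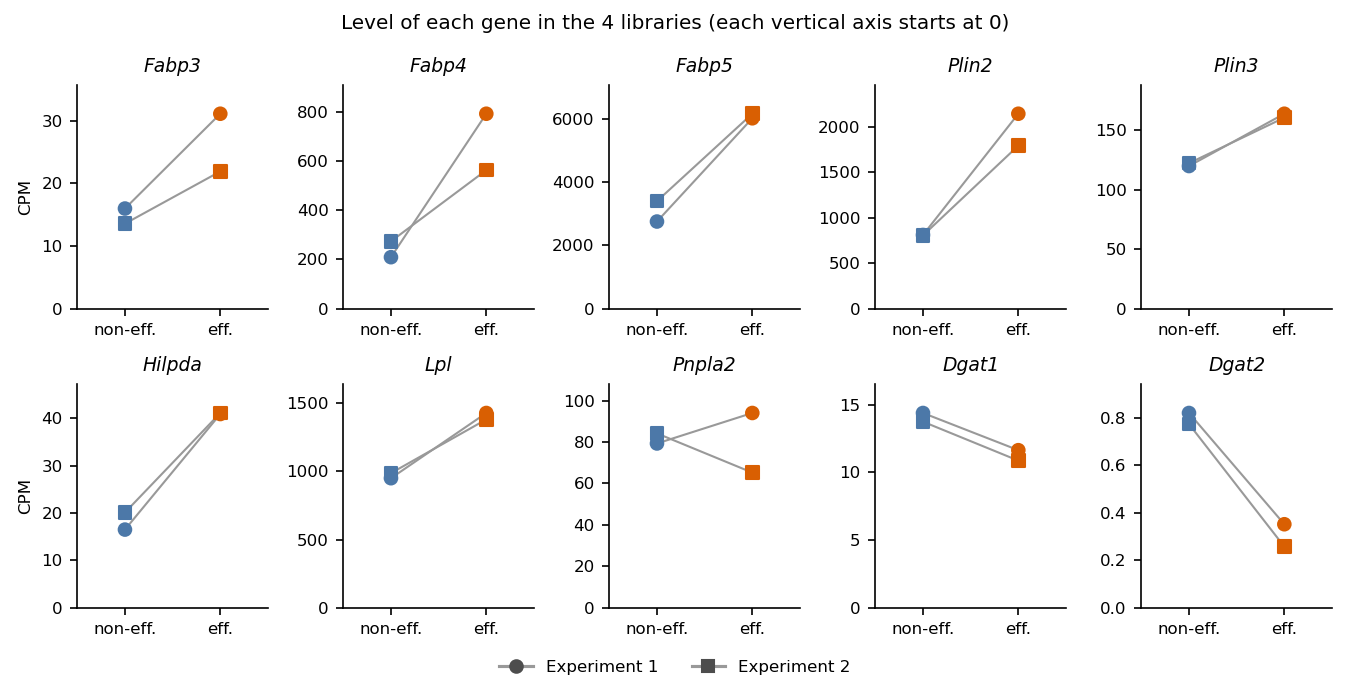
Level of each gene in CPM (vertical axes, each from 0) in the non-efferocytic (non-eff., blue) and efferocytic (eff., orange) library of Experiment 1 (circles) and Experiment 2 (squares), with a line joining the libraries of 1 experiment. Of the 10 genes, 7 rise along both lines, Dgat1 and Dgat2 fall along both, and Pnpla2 rises in Experiment 1 and falls in Experiment 2.

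Fabp4, the adipocyte and macrophage fatty-acid binding protein also known as aP2, showed the largest fold change of the set in the fit over both experiments. Its level was 209 and 273 CPM in the non-efferocytic libraries and 791 and 562 CPM in the efferocytic libraries of Experiments 1 and 2. Both efferocytic libraries lay above both non-efferocytic ones. The log2 fold change was 1.59 ± 0.20 (SE, edgeR adjusted p = 0.000985), and of the 7097 tested genes that averaged 10 CPM or more only 11 had a larger one. The ratio within Experiment 1 was 3.79 and within Experiment 2 it was 2.06, a gap in size that was not tested. In Experiment 2 the ratio of Plin2 was larger, at 2.23.

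Fabp5, the epidermal fatty-acid binding protein, was the member with the highest counts. It stood at 2756 and 3401 CPM in non-efferocytic and at 6021 and 6165 CPM in efferocytic BM macrophages, without overlap. Its log2 fold change was 1.10 ± 0.17 (SE, edgeR adjusted p = 0.00218). Fabp3, the heart-type protein, was at 16.0 and 13.6 CPM against 31.1 and 21.9 CPM, again without overlap, with a log2 fold change of 0.93 ± 0.10 (SE, edgeR adjusted p = 0.000458).

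Fabp5 (chr3:10012548-10016607, plus strand, GRCm38) and Fabp4 (chr3:10204088-10208576, minus strand) lie in 1 cluster of binding protein genes. The other members of that cluster were nearly silent here: Pmp2 had no UMI in any library, while Fabp9 and Fabp12 stayed at or below 0.0296 CPM. Fabp3 (chr4:130308595-130315463, plus strand) overlaps exons of Zcchc17 on the opposite strand, which stood at 36.8 to 40.4 CPM. Fabp3 and Fabp5 have processed pseudogenes whose transcripts match theirs over 402 and 409 bases at 99.3% and 98.3% identity. These pseudogenes have no row of their own in the count tables, and what their reads contributed was not tested.

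Lpl (chr8:68880491-68907448, plus strand), which macrophages secrete to split triglycerides of lipoproteins, was at 948 and 985 CPM in non-efferocytic and at 1425 and 1378 CPM in efferocytic libraries. The groups did not overlap. The log2 fold change was 0.64 ± 0.12 (SE, edgeR adjusted p = 0.00551).

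Plin2 (chr4:86648386-86670060, minus strand) encodes perilipin 2, the main coat protein of lipid droplets outside adipocytes. The non-efferocytic libraries were nearly equal, at 812 and 807 CPM, and the efferocytic libraries reached 2147 and 1796 CPM. This gave a log2 fold change of 1.39 ± 0.14 (SE, edgeR adjusted p = 0.000339). Plin3 (chr17:56277476-56292873, minus strand), a perilipin that is also found free in the cytosol, was at 120 and 122 CPM against 164 and 161 CPM. It did not overlap between groups either, and its log2 fold change was 0.53 ± 0.088 (SE, edgeR adjusted p = 0.00289). The other perilipins, Plin1, Plin4 and Plin5, were at or below 0.103 CPM in every library.

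Hilpda (chr6:29272488-29275446, plus strand), the inhibitor of ATGL, was at 16.5 and 20.1 CPM in non-efferocytic and at 40.9 and 41.1 CPM in efferocytic libraries. Its log2 fold change was 1.27 ± 0.099 (SE, edgeR adjusted p = 0.000130), which was the smallest adjusted p of the set. Pnpla2 (chr7:141455198-141460743, plus strand), the lipase that HILPDA inhibits, was not called. It went from 79.3 to 94.0 CPM in Experiment 1 and from 84.2 to 65.2 CPM in Experiment 2, so that the groups overlapped and the experiments went opposite ways. Its log2 fold change was 0.05 ± 0.15 (SE, edgeR adjusted p = 0.823).

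Dgat1 (chr15:76502015-76511953, minus strand) was at 14.4 and 13.7 CPM in non-efferocytic and at 11.6 and 10.9 CPM in efferocytic libraries. The groups did not overlap, but the log2 fold change of -0.22 ± 0.088 (SE) did not pass (edgeR adjusted p = 0.0868). Dgat2 (chr7:99153658-99182719, minus strand) was rare, at 0.820 and 0.773 CPM against 0.352 and 0.258 CPM. These levels rest on 83 and 107 UMIs in the non-efferocytic and 44 and 40 UMIs in the efferocytic libraries. Dgat2 fell by 1.29 ± 0.25 on the log2 scale (SE, edgeR adjusted p = 0.00539). The call was lost in 9 of 20 other settings, with adjusted p of 0.000266 to 0.287 over all 20, while the fold change stayed below 0 in all of them. Among the 9 were DESeq2 with the same block (log2 fold change -1.29, adjusted p = 0.0696), macrophage-like cells alone (-1.18, 0.0841) and free RNA subtracted (-1.83, 0.287). The setting of macrophage-like cells left out cells unequally between the libraries.

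**Figure D2:**
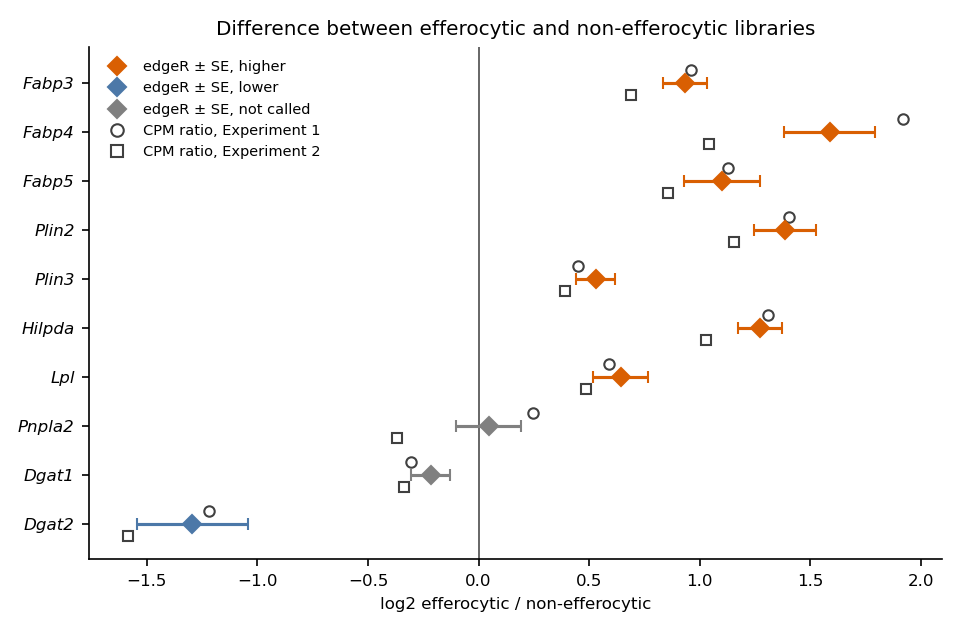
Log2 ratio of efferocytic over non-efferocytic libraries (horizontal axis) for each gene: diamonds give the edgeR log2 fold change with its SE, and open circles and squares give the log2 ratio of CPM within Experiments 1 and 2. Fabp4, Plin2 and Hilpda lie farthest to the right, at 1.59, 1.39 and 1.27, and Dgat2 farthest to the left, at -1.29.

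Of the 10 members, 7 were thus called higher and 1 lower. The median log2 fold change of the members was 0.79, against -0.02 over all genes tested. Both efferocytic libraries lay above both non-efferocytic ones for 7 members, an order seen in 22.2% of all tested genes. Both lay below for 2 members, Dgat1 and Dgat2, an order seen in 44.7% of all tested genes. The members were chosen with earlier results of these data known, so the comparisons with all genes are descriptions and not tests. With 2 against 2 libraries an exact two-sided permutation test of a single gene cannot go below p = 0.333, so that these calls rest on the spread that edgeR shares across genes.

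When a library was left out the block had to be dropped as well, since it would leave no spread to estimate, and the lone library of a group was assumed to vary like the pair of the other group. Without the block and with all 4 libraries, the same 7 members were called higher and Dgat2 lower. Without the block and without the non-efferocytic library of Experiment 1, or without that of Experiment 2, edgeR called 0 of 10 members, and over all genes 0 higher and 2 or 0 lower. At an unadjusted p under 0.05 there were still 2999 and 3494 genes. Without the efferocytic library of Experiment 1 or of Experiment 2, the same 7 members were called higher, while Dgat2 was lost without that of Experiment 2 (adjusted p = 0.0982). Over these 4 fits the log2 fold change ranged from 1.30 to 1.86 for Fabp4, from 0.64 to 1.23 for Fabp3 and from 0.95 to 1.26 for Fabp5. It ranged from 1.23 to 1.56 for Plin2, from 1.14 to 1.43 for Hilpda, from 0.59 to 0.71 for Lpl and from 0.48 to 0.59 for Plin3. With 10% of the UMIs of each library subtracted as free RNA, only Plin2 and Hilpda were called, at a log2 fold change of 1.42 and 1.75 (adjusted p = 0.0494 for each), among 192 genes higher and 125 lower. The other 5 kept log2 fold changes of 0.53 to 1.91 with adjusted p of 0.0557 to 0.0881.

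Counted per cell instead of in CPM, the genes of efferocytic cells shifted up as a whole, by a median log2 of 0.60. On that scale the log2 fold changes of Plin2 and Fabp4 were 2.00 and 2.21, Pnpla2 was called higher at 0.66 (adjusted p = 0.0139), and Dgat1 turned to 0.40 without passing (adjusted p = 0.184). Relative to the shift of 0.60, Pnpla2 was thus close to the typical gene. This scale divides by all barcodes kept, also those in clusters with a median depth under 1/3 of their library's. Such clusters held 442 and 297 barcodes in Experiment 1 (non-efferocytic, then efferocytic). In Experiment 2 they held 1669, 728 and 72 barcodes against 340 and 78. Their part in the shift was not tested. Scaling to library totals moved the median of all genes to -0.12 and left the 7 higher calls in place. Over all genes it gave 1847 higher and 3700 lower (33.3% of calls higher), against 2761 and 2636 with TMM (51.2%), and counting per cell gave 6921 and 586 (92.2%).

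Whether more cells held a UMI of the genes was read after each cell had been thinned to 5000 UMIs, which left out 1099, 544, 3404 and 505 cells with fewer (non-efferocytic and efferocytic in Experiment 1, then in Experiment 2). Intervals are exact 95% Clopper-Pearson intervals and cover counting error only. Fabp4 was found in 29.4% (28.4 to 30.5) of non-efferocytic and 68.6% (67.4 to 69.8) of efferocytic cells in Experiment 1. In Experiment 2 the shares were 38.0% (37.0 to 38.9) and 60.9% (59.8 to 62.0). At this depth Fabp4 had the widest gap in the share of cells of all members, 39.2 and 23.0 percentage points. At 2000 UMIs per cell the gap of Plin2 in Experiment 2, 24.7 points, was wider than that of Fabp4, 20.04 points.

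Plin2 was found in 89.9% and 89.5% of non-efferocytic cells and in 99.7% and 98.9% of efferocytic cells. Fabp5 was found in 96.5% or more of the cells of every library. The number of UMIs in a cell differed as well: the mean number of Plin2 UMIs in thinned cells went from 3.77 to 10.5 and from 3.71 to 8.68. A randomly drawn efferocytic cell held more Plin2 UMIs than a non-efferocytic cell of the same experiment in 86.6% and 79.7% of all pairs, with ties split evenly. The same figure was 79.3% and 74.0% for Fabp5, 72.5% and 63.8% for Fabp4, and 63.5% and 59.6% for Lpl.

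Hilpda was found in 6.16% and 7.30% of thinned non-efferocytic and in 14.9% of thinned efferocytic cells of either experiment. Fabp3 was found in 6.71% and 6.14% against 12.4% and 9.43%, Plin3 in 44.0% and 44.2% against 55.2% and 53.8%, and Lpl in 68.3% and 77.6% against 85.0% and 85.2%. The share of Pnpla2 went up from 32.7% to 37.9% in Experiment 1 and down from 34.4% to 28.0% in Experiment 2. Without thinning, the share of cells with a UMI was higher in efferocytic cells for 9 members in both experiments, and after thinning for 7. Thinning turned the direction for Pnpla2 in Experiment 2 and for Dgat1 in both experiments.

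**Figure D3:**
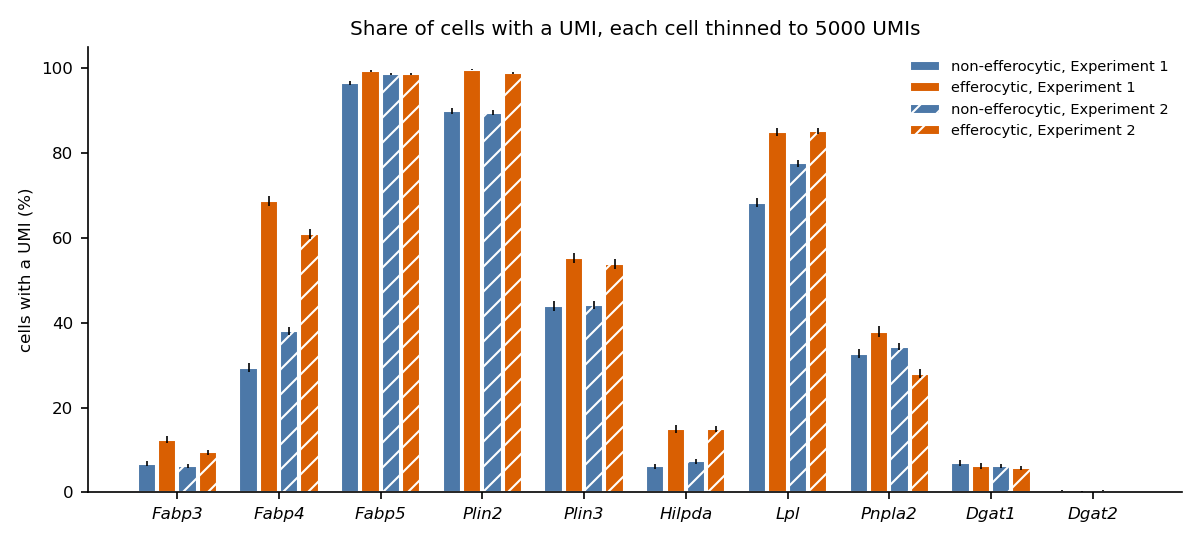
Share of cells with at least 1 UMI (vertical axis, percent) for each gene in the 4 libraries after thinning each cell to 5000 UMIs, with exact 95% Clopper-Pearson intervals as error bars; plain bars are Experiment 1 and hatched bars Experiment 2. The gap between blue (non-efferocytic) and orange (efferocytic) bars is widest for Fabp4, from 29.4% to 68.6% in Experiment 1, and Dgat2 is at most 0.376% in every library.

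Free RNA in the droplets can add to such shares. Cells rich in neutrophil markers numbered 76 and 122 in the non-efferocytic libraries and 25 and 24 in the efferocytic ones. A Fabp4 UMI was found in 18.4% and 25.4% of them in the non-efferocytic libraries and in 44.0% and 29.2% in the efferocytic ones. The remaining cells, unthinned too, stood at 39.6%, 46.0%, 81.9% and 78.4%. Median depths were 16165, 15683, 17156 and 19904 UMIs in the marker-rich cells and 11126, 9561, 17172 and 17472 UMIs in the rest, in the same order. In CPM, Fabp4 was at 38.5, 40.3, 127 and 14.8 in the marker-rich cells against 211, 277, 794 and 564 in the rest.

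Whether the marker-rich cells lack Fabp4 or the other members is not known, so their shares are not read as a floor set by free RNA. A Plin2 UMI was found in 93.4%, 88.5%, 96.0% and 87.5% of the marker-rich cells and in 94.3%, 88.8%, 99.6% and 98.5% of the rest. For Plin3 the shares were 72.4%, 68.0%, 84.0% and 75.0% in the marker-rich cells and 66.4%, 58.2%, 85.8% and 86.1% in the rest. The Hilpda share was 18.4%, 14.8%, 28.0% and 33.3% in the marker-rich cells and 12.9%, 13.2%, 34.6% and 35.3% in the rest. In the non-efferocytic libraries the rest thus lay below the marker-rich cells for Plin3 and Hilpda. For Plin2 the rest lay less than 1 percentage point above them. The marker-rich cells were the deeper ones there, which by itself raises a share. These unthinned shares do not set the rest apart there.

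The levels did so more clearly for Plin2, at 255, 292, 554 and 370 CPM in the marker-rich cells against 819, 815, 2154 and 1800 CPM in the rest. Hilpda was at 11.6, 10.7, 16.4 and 16.9 CPM against 16.6, 20.3, 41.0 and 41.2 CPM. Plin3 was at 102, 98.99, 135 and 169 CPM against 120, 123, 164 and 160 CPM. In the efferocytic library of Experiment 2 it was no higher in the rest, but the 169 CPM rest on 80 UMIs from 24 cells. Barcodes of 10 to 100 UMIs, which hold mostly free RNA, had less Plin3 than the marker-rich cells, at 62.7, 87.8, 62.9 and 89.7 CPM. For Fabp3, Fabp5, Lpl and Pnpla2 the share of the rest was above that of the marker-rich cells in each library.

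Within each library, cells were clustered alone, with the 10 members left out of the genes used. Main clusters were those with 3 or more macrophage markers in 50% of their cells, a median depth of at least 1/3 of their library's and fewer than 2 markers of another cell type among their 10 leading genes. They numbered 6 in each non-efferocytic library, 5 in the efferocytic library of Experiment 1 and 7 in that of Experiment 2, and 21 of these 24 were named macrophage-like. The other 3 held 1 marker of another cell type and no macrophage marker among their leading genes and stay unnamed: in the non-efferocytic library of Experiment 2 the Mmp12 cluster, with the osteoclast gene Ctsk, and the cluster led by H2-Eb1, with the monocyte gene Ccr2, and in the efferocytic library of Experiment 1 the cluster led by Arg1, with the monocyte gene F13a1. The remaining 12 clusters were 2 neutrophil-like, 2 fibroblast-like, 7 with few UMIs and 1 unnamed one of 185 cells led by Camp, S100a9 and Ngp in the efferocytic library of Experiment 1, and most of them held macrophage markers as well. Because of the unnamed ones, clusters are described within each library and not compared as a class between groups. The following differences between clusters are descriptions without a test, since members are part of the same cells.

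In 3 of the 4 libraries Fabp4 and Lpl were highest in the cluster with Mmp12 and Atp6v0d2 among its leading genes, a macrophage elastase and a subunit of the lysosomal proton pump. In the non-efferocytic libraries such a cluster held 407 and 512 CPM of Fabp4, while the lowest main cluster held 63.2 and 94.5 CPM. Lpl stood there at 1822 and 1618 CPM against 361 and 544 CPM in its lowest cluster. In the efferocytic library of Experiment 1 the Mmp12 cluster again led, with 1077 CPM of Fabp4 and 1955 CPM of Lpl. In that of Experiment 2 a cluster led by Fabp4 itself, Ccl2 and Cd5l held the most Fabp4, 1039 CPM, and the cluster led by Ifrd1 and Pdpn the most Lpl, 1916 CPM.

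Plin2 and Hilpda did not peak in the clusters with both Mmp12 and Atp6v0d2 among their leading genes. In Experiment 1 the non-efferocytic peak was a cluster of 74 cells in which Cav1, Pdpn, Ifrd1 and Ddit3 were among the leading genes, with 3573 CPM of Plin2 and 75.2 CPM of Hilpda. In the efferocytic library of the same experiment a cluster led by Phgdh and Asns, enzymes of serine and asparagine synthesis, held 3626 CPM of Plin2 and 111 CPM of Hilpda. The Hilpda peak of that library, at 115 CPM, was a cluster led by Arg1, Ankrd37, F13a1, Bnip3 and Mmp12.

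In Experiment 2 a non-efferocytic cluster with Cxcl3, Acod1 and Asns among its leading genes held 1993 CPM of Plin2 and 79.0 CPM of Hilpda. Among efferocytic cells, a cluster led by Slpi, Ero1l and Phgdh held 142 CPM of Hilpda and 3037 CPM of Plin2, and one led by Ifrd1 and Pdpn held 3153 CPM of Plin2. Between the lowest and the highest main cluster of a library, Hilpda varied 8.13-fold to 10.6-fold and Plin2 2.35-fold to 7.55-fold. Ranges were narrower for Pnpla2, at 1.25-fold to 1.67-fold.

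Fabp3 had a pattern of its own. In non-efferocytic libraries it was highest in the clusters led by interferon-response genes such as Cxcl10, Ifit1 and Rsad2, at 34.2 and 35.7 CPM, and it was at 13.2 and 10.1 CPM in the Mmp12 clusters where Fabp4 and Lpl peaked. In the efferocytic libraries it was highest in clusters led by Ms4a6b or Cd74, at 41.0 and 30.8 CPM.

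**Figure D4:**
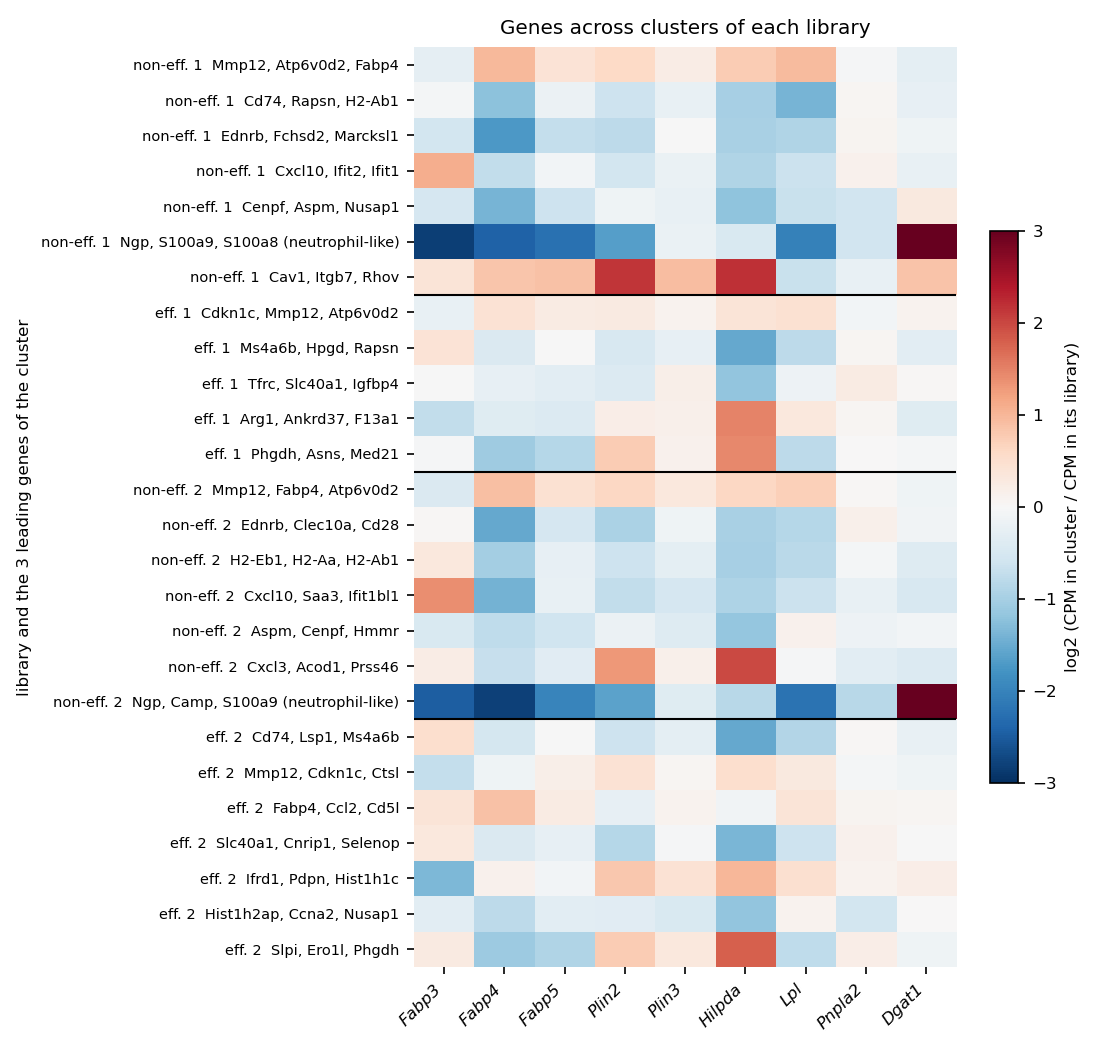
Log2 ratio of a gene's CPM in a cluster to its CPM in the whole library (colour, limited to ±3) for 9 genes and every main cluster and every neutrophil-like cluster; rows are grouped by library, non-efferocytic (non-eff.) or efferocytic (eff.) of Experiment 1 or 2, and named by their 3 leading genes. Fabp4 and Lpl are red in the Mmp12 clusters of all libraries but the efferocytic one of Experiment 2, where Fabp4 is not. Plin2 and Hilpda are red in the clusters led by Cav1, Phgdh, Cxcl3, Ifrd1 or Slpi and, more faintly, in the Mmp12 clusters. Hilpda is also red in the cluster led by Arg1, where Plin2 is faint. Dgat1 is red in the neutrophil-like clusters. Dgat2 is not drawn because several clusters had no UMI of it.

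Across single cells thinned to 5000 UMIs, the closest pair within the set was Fabp4 and Fabp5, with Pearson's r of 0.40 to 0.41 in the 4 libraries. Plin2 and Lpl followed with a mean r of 0.23, then Fabp4 and Lpl with 0.21, Fabp4 and Plin2 with 0.19, and Plin2 and Hilpda with 0.18. Pairs with Pnpla2 had a mean r between -0.01 and 0.04, which is no finding in sparse counts. These values describe cells that share a library and its free RNA, and carry no test.

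Among 6611 genes searched, the non-member closest to Lpl was Cd36, the scavenger receptor for fatty acids, with a mean r of 0.48 over the 4 libraries (0.44 to 0.53). For Plin2 they were Lgals3, galectin-3, with 0.46, and Cstb with 0.39. For Fabp5 they were Lgals3 with 0.36 and Gpnmb with 0.35, and for Fabp4 Atp6v0d2 with 0.27 and Lgals3 with 0.24. For Hilpda the closest were Ifrd1 and Fam129b, at 0.14 and 0.13. Values for Fabp3, Plin3 and Pnpla2 were at most 0.11.

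Dgat1 and Dgat2 lay apart from the rest of the set: in every library their CPM was higher in cells rich in neutrophil markers than in all other cells. The closest genes to Dgat1 across cells were Ngp and Camp, granule genes of neutrophils, both with a mean r of 0.17. Cells with at least 1% of their UMIs from the neutrophil marker list, a limit set after the data were seen, numbered 76 and 122 in the non-efferocytic libraries and 25 and 24 in the efferocytic ones. That was 0.918% and 0.910% of cells against 0.373% and 0.285%, and at most 8 cells of a library lay within a factor of 2 of the limit.

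These few cells held 60.2% and 62.6% of all Dgat2 UMIs in the non-efferocytic libraries and 70.5% and 32.5% in the efferocytic ones. Dgat2 reached 36.3, 32.5, 63.6 and 27.5 CPM in them, and 0.331, 0.293, 0.104 and 0.174 CPM in all other cells (non-efferocytic of Experiments 1 and 2, then efferocytic). Dgat1 was at 140, 114, 109 and 99.4 CPM in them and at 12.6, 12.2, 11.3 and 10.6 CPM elsewhere. They held 13.3%, 12.4%, 3.65% and 2.79% of its UMIs, so that most Dgat1 UMIs came from the other cells.

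The sum of the 11 neutrophil markers moved with Dgat2, from 3063 to 968 CPM in Experiment 1 and from 3355 to 725 CPM in Experiment 2. Of these markers, 10 were called lower and Mmp8 was not called. Without the marker-rich cells the log2 fold change of Dgat2 was -1.05 ± 0.36 (SE) and no longer passed (edgeR adjusted p = 0.0514), and that of Dgat1 was -0.09 ± 0.092 (SE, adjusted p = 0.459). The 7 members that were higher kept their call without these cells, with log2 fold changes of 1.56 for Fabp4, 1.37 for Plin2 and 1.26 for Hilpda. A lower share of such cells and less Dgat2 RNA per cell cannot be told apart in the sums over whole libraries. The sum of the fibroblast markers went from 156 to 48.2 and from 131 to 56.4 CPM. In the cells of the main clusters alone, and so without the fibroblast-like clusters, the 7 members kept their call, Plin2 at 1.34 and Fabp4 at 1.56, while Dgat2, at -1.05 ± 0.35 (SE), did not (edgeR adjusted p = 0.0708).

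**Figure D5:**
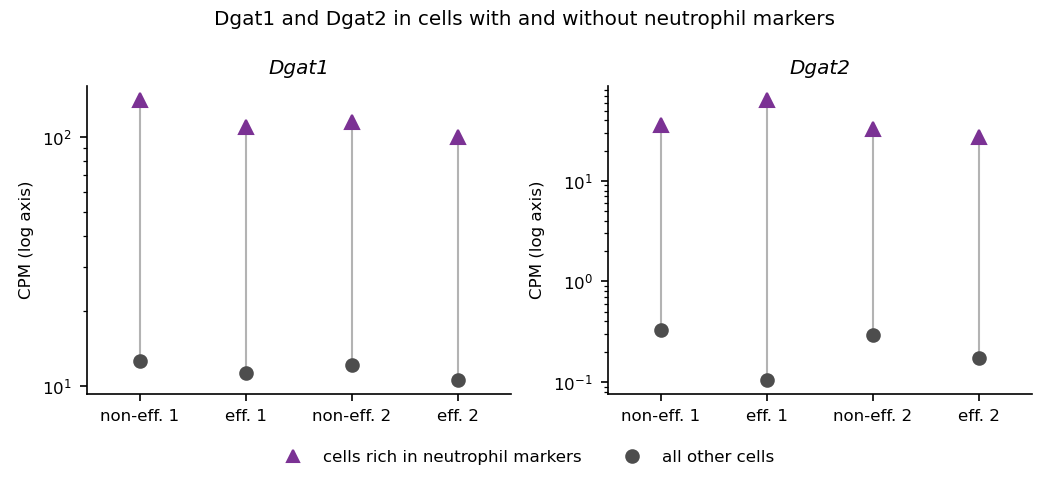
CPM of Dgat1 and Dgat2 (log axes) in cells rich in neutrophil markers (purple triangles) and in all other cells (grey circles) of each non-efferocytic (non-eff.) and efferocytic (eff.) library of Experiments 1 and 2. In each library the triangle lies far above the circle, for Dgat2 at 27.5 to 63.6 CPM against 0.104 to 0.331 CPM.

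Promoters were read because Plin2 and Hilpda rose together and Hilpda is a known target of hypoxia-inducible factors, which bind a core of ACGTG or GCGTG. RefSeq promoters (GRCm38.p6) were at hand for 5 of the 10 members, 6 promoters in all. The sequences shown run from 250 bases before to 10 bases after the start site, and capitals mark every ACGTG or GCGTG on either strand.
Plin2 (chr4:86670050-86670309, minus strand): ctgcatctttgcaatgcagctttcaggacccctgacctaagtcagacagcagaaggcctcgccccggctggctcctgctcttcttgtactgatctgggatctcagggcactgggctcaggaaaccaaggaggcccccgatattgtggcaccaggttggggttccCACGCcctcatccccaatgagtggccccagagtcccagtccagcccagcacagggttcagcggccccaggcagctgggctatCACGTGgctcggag
Hilpda, second start (chr6:29272376-29272635, plus strand): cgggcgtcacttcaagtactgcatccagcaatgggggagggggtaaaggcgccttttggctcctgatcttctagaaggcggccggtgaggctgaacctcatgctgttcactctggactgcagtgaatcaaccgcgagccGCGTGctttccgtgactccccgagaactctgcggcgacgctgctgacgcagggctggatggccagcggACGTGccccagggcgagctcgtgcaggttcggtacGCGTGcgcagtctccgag

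The Hilpda promoter held ACGTG from base -43 and GCGTG from bases -111 and -8, counted from the start site, and that of its first start, which lies upstream, held GCGTG from base 28 alone. The Plin2 promoter held GCGTG on the opposite strand from base -86 and the palindrome CACGTG from base -4, which contains ACGTG on both strands and spans the start site. CACGTG is also the core of the E-box read by MYC and USF factors. Plin2 further held AGGTCA, the half-site of nuclear receptors such as PPARs, on the opposite strand from base -218. The promoters of Fabp3, Plin3 and Pnpla2 held none of these motifs in the 300 bases searched. Of 32851 promoters of that length, 43.8% held ACGTG or GCGTG, 7.15% held CACGTG and 16.3% held AGGTCA, so that a match is a description and not a site.

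Other lipid genes were read in 4 lists that exclude the 10 members. The lists, too, were chosen with earlier results of these data known. Of the genes of droplets and triglyceride metabolism, 31 of 40 could be tested, and 13 (41.9%) were higher and 5 (16.1%) lower, beside 19.9% and 19.0% of all genes tested, and the median of their log2 fold changes was 0.22 against -0.02 over all genes. Agpat5, an acyltransferase of phosphatidic acid synthesis, went from 54.7 and 51.7 to 73.2 and 81.8 CPM (log2 fold change 0.65). Abhd5, the activator of ATGL, went from 27.9 and 29.2 to 35.4 and 40.5 CPM (0.52). The lipins Lpin1 and Lpin2, phosphatases that make diacylglycerol, fell by 0.59 and 0.40 on the log2 scale.

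For the uptake and binding of fatty acids and lipoproteins, 18 of 29 genes could be tested, and 9 (50%) were higher and 4 (22.2%) lower, the latter near the 19.0% of all genes, and the median of their log2 fold changes was 0.18. Cd36 went from 476 and 556 to 1440 and 1669 CPM (log2 fold change 1.70 ± 0.12 SE, edgeR adjusted p = 9.4e-05). The scavenger receptor Msr1 went from 42.5 and 41.8 to 62.1 and 95.6 CPM (0.98). Scarb1, the HDL receptor, fell by 0.30 on the log2 scale.

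Of the genes of fatty-acid oxidation, 25 of 26 could be tested, and 14 (56.0%) were higher and 1 (4.00%) lower, beside 19.9% and 19.0% of all genes, and the median of their log2 fold changes was 0.25. The largest rises were those of Hadhb, a subunit of the mitochondrial trifunctional protein, and Acadl, the long-chain acyl-CoA dehydrogenase, at 0.74 and 0.71. Pdk4, the single gene called lower, was at 0.484 and 0.448 against 0.224 and 0.206 CPM.

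Among the transcriptional regulators, 17 of 18 could be tested, and 5 (29.4%) were higher and 6 (35.3%) lower, beside 19.9% and 19.0% of all genes, and the median of their log2 fold changes was -0.22. Epas1, which encodes HIF-2α, went from 16.3 and 14.1 to 41.2 and 47.9 CPM (log2 fold change 1.66 ± 0.10 SE, edgeR adjusted p = 5.08e-05). Nr1h3, the oxysterol receptor LXRα, went from 17.0 and 19.0 to 35.8 and 35.7 CPM (1.10 ± 0.088 SE, edgeR adjusted p = 0.000141). Klf4 and Cebpb fell by 0.66 and 0.51 on the log2 scale. Pparg, the receptor that drives Fabp4 in adipocytes, stood at 20.5 and 23.3 against 25.6 and 25.7 CPM and was called higher (0.33 ± 0.090 SE, edgeR adjusted p = 0.0212), and Hif1a stood at 58.5 and 51.6 against 42.3 and 45.4 CPM without passing (-0.22, adjusted p = 0.0648). Pparg and Hif1a were named for their roles after their values were seen. With 10% of the UMIs subtracted as free RNA, the 4 lists held 0, 1, 0 and 2 genes called higher, in the order given, and 0 lower.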

How the data were processed

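Reads were aligned to mm10 by the authors with Cell Ranger (3.0.0 in the submitters' processing notes, while the headers of Experiment 2 name 3.1.0) and the deposited tables hold raw counts of UMIs, 1 per gene and barcode, not yet filtered or normalized. Their integration (Seurat 3.1) and tests on single cells (DESingle) were not repeated. The limits of the study's methods for cells (200 genes, 1000 UMIs, 10% mitochondrial UMIs) were applied to every barcode of the deposited tables, without the cell calls of Cell Ranger that came first in the study. A rule after Cell Ranger's, applied first, left 7549 and 6158 cells in Experiment 1 and 10615 and 7921 in Experiment 2 (non-efferocytic, then efferocytic), fewer than were kept here, and was tried as an alternative. For each library the UMI counts of its cells were added up, since cells of 1 library are not replicates, and tested with edgeR 4.0.16 in R 4.3.3 (quasi-likelihood F test, TMM, filterByExpr, experiment as a block, Benjamini-Hochberg, threshold 0.05). The block follows the study's comparison of the groups within each experiment. Libraries of 1 experiment also deviated together from their group means (correlation 0.787 across 7098 genes). With 2 libraries per group this is the same number for both experiments. The cells kept held 101216659 to 155224183 UMIs per library, at which 3 UMIs amount to 0.0193 to 0.0296 CPM.

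On simulated counts the test recovered 100 of 100 genes changed by a log2 of 1 and 100 of 100 changed by 2, with 7 false calls over 13780 genes. Those counts had 1 spread for all genes, and few genes were changed, all of them above a minimum count. The recovery was thus made easy and says little about the real libraries. Cells of each library were clustered alone (Leiden, resolution 0.5, 20 components of 5000 genes, leidenalg 0.10.2), and a cluster was named from 3 or more markers found in 50% of its cells, a limit set after the data were seen. Doublets were kept. Free RNA was read from barcodes of 10 to 100 UMIs. Transcripts similar to members were sought with blastn 2.17.0 in GENCODE vM21 (at least 200 bases at 90% identity). All members were named, as were of each list the 2 called genes with the largest rise and fall at a mean of at least 10 CPM. A gene that this rule also names is not reported here. The members and lists were chosen with earlier results of these data known.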

Additional observations from a re-analysis of the deposited data

Results flagged for a closer look

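Pnpla2 went opposite ways in the 2 experiments. The log2 ratio of CPM, efferocytic over non-efferocytic, was 0.25 in Experiment 1 and -0.37 in Experiment 2, with 1 library per group in each, and the difference between the experiments was not tested.

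Barcodes of 10 to 100 UMIs, which entered a comparison only in the setting that subtracts free RNA, held 3 members at more than 3 times their level in cells, with at least 10 UMIs. Fabp4 was at 988 CPM in these barcodes of the non-efferocytic library of Experiment 1, against 209 CPM in its cells, and the efferocytic library of that experiment had 1521 against 791 CPM. Hilpda was at 131 and 145 CPM in the barcodes of the non-efferocytic and efferocytic libraries of Experiment 2, against 20.1 and 41.1 CPM in cells. Dgat2 was at 12.2 and 12.7 CPM in the same barcodes of Experiment 2, from 20 and 18 UMIs, against 0.773 and 0.258 CPM in cells. In Experiment 1 the barcodes held 22.9 and 33.2 CPM of Hilpda, and 2 and 4 UMIs of Dgat2. Beside the high free Fabp4 of Experiment 1, the 76 neutrophil-marker-rich cells of its non-efferocytic library held 38.5 CPM of Fabp4.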

How the results depend on the processing

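Calls and log2 fold changes were recomputed under 21 other settings (20 for Dgat2), 4 of them with 1 library left out, and shares of cells at 2 other depths; cluster levels, correlations across cells and the neutrophil marker limit were not recomputed. Of 209 member log2 fold changes 174 kept their direction and their side of the threshold, 28 lost the call, 3 gained it and 4 reversed. Without the replicate block, edgeR called the same 7 members higher and Dgat2 lower, and 1285 genes higher and 1073 lower in place of 2761 and 2636. With 10% of the UMIs subtracted as free RNA, 2 members were higher (Plin2 at 1.42 and Hilpda at 1.75, each with adjusted p = 0.0494) and 0 lower, and 192 and 125 genes; Fabp4 stood at 1.91 (adjusted p = 0.0881), and the cause was not tested. No member was called lower (0) with DESeq2 (1417 genes lower), per cell (6921 genes higher and 586 lower), in macrophage-like cells alone (1285 and 1131 genes), or, both chosen after the data were seen, without the clusters other than the main ones and without neutrophil-marker-rich cells. Macrophage-like cells alone, without the 3 unnamed main clusters, left 4392 of 13411 non-efferocytic cells of Experiment 2, where 10788 lay in the main clusters, and Fabp4 moved from 1.59 to 2.28. Among the cells dropped there was the Mmp12 cluster, with 512 CPM of Fabp4. The Mmp12 clusters of the other libraries stayed in, so this setting does not compare like cells between the groups. Library totals gave 2 members lower, Dgat1 being added, as did a mean of at least 10 CPM for Dgat1 (1473 and 1553 genes, with fewer genes tested and Dgat2 not among them). With 1 library left out and the block dropped too, 0 to 7 members were higher and 0 to 1 lower, and 0 to 1658 genes higher and 0 to 1275 lower. Pnpla2 reversed to -0.061 with library totals, to -0.050 at a mean of at least 10 CPM and to -0.25 without the efferocytic library of Experiment 1 (without that of Experiment 2 it was 0.35), and Dgat1 to 0.40 per cell, none of them called. Differences in the share of cells with a UMI reversed for Pnpla2 in Experiment 2, to -6.37 percentage points at 5000 UMIs per cell and -2.83 at 2000, and for Dgat1, to -0.711 and -0.464 in the 2 experiments at 5000 and to -0.672 and -0.654 at 2000. Of 332 log2 fold changes of the 16 list genes named, 252 kept their direction and side of the threshold, 70 lost the call, 5 gained it and 5 reversed, all per cell and uncalled: Lpin1 to 0.033, Lpin2 to 0.22, Scarb1 to 0.32, Cebpb to 0.11 and Hif1a to 0.40. Calls in the lists ranged, with all libraries kept, over 0 to 22 higher and 0 to 7 lower for droplets and triglycerides, 1 to 10 and 0 to 6 for uptake, 0 to 22 and 0 to 2 for oxidation and 2 to 7 and 0 to 9 for regulators, and at most 7 higher and 3 lower in any list with 1 library left out. Depth limits Dgat2, at 83 and 107 UMIs in the non-efferocytic and 44 and 40 in the efferocytic libraries.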
